A study of Homo sapiens with 4 samples.

Results

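The long-arm segment of chromosome 8 described here runs from about 85.1 Mb to 145.0 Mb of the hg38 build and holds RUNX1T1 and MYC. Its members are the peaks of open chromatin on chromosome 8 whose middle lies between these positions. They number 490 of the 20556 peaks in the first of the authors' deposited peak tables and 262 of the 13577 in the second. The rest of chromosome 8 holds 511 and 263 peaks. The segment was chosen on measured values: it is a run of 5 Mb bins in which the fold changes of the second table, once adjusted for the level of the peak, had medians more than 0.1 above 0. The values of the second table are therefore given as a description and support nothing. The first table is the same contrast in the same cell line, and whether it shares libraries with the second is not stated, so its values are given without a test as well.

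ATAC-seq, in which a transposase cuts accessible DNA and attaches sequencing adapters, was run on Kasumi-1, a human acute myeloid leukaemia cell line. The knockout group carried a CRISPR/Cas9 knockout of SETD8 (now KMT5A, the enzyme that places the single methyl group on lysine 20 of histone H4), and the control group, wild type by its label, received the guide named sgNT. Each group had 2 libraries, none of the labels gives a dose or a time, and nothing states whether libraries of a group came from separate cultures or whether the knockout cells were a pool or a clone. A log2 fold change is the knockout level over the control level throughout.

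RUNX1T1 encodes a transcriptional corepressor that is silent in most blood cells. In acute myeloid leukaemia with the t(8;21) translocation, which Kasumi-1 carries, the chromosomes are joined between RUNX1 on chromosome 21 and RUNX1T1 on chromosome 8, so that chromosome 8 material telomeric of the break lies on the derivative of chromosome 21. MYC, further towards the telomere, encodes a transcription factor that drives growth and proliferation, and in blood cells it is controlled by enhancers spread over a gene-poor neighbourhood that also holds the long noncoding RNA genes PVT1, CASC11 and CCDC26. The last stretch before the telomere is rich in genes, among them those for ribosomal, repair and zinc finger proteins.

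Levels were lower in the knockout at most peaks genome-wide, with table medians of -0.87 (first) and -1.23 (second) on the log2 scale, so a peak of the segment is read below against these medians. The second table compares the knockout and the control library numbered 2, which held 2091322 and 5345251 reads in peaks. Its median peak had 125 knockout reads and 296 normalised control reads. Control reads were scaled by only 0.918, so the fold changes of this table carry the difference in reads in peaks between these libraries. Whether the genome-wide lowering reflects accessibility or the yield of the libraries was not tested. In the first table the mean level was 142 normalised reads at the median peak, and the depth of its libraries is unknown here. Promoters of 5 of 6 markers of myeloid progenitors were open in both tables (all but MPO), and 1 of 3 lymphoid, 1 of 3 epithelial and 0 of 1 liver markers in the first table only. The KMT5A promoter had a fold change of -0.82 in the first of the authors' deposited tables and -1.45 in the second, which does not test the edit, since a guide need not change accessibility.

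Peaks of the segment were lowered less than those of the rest of the chromosome. In the first table the median log2 fold change was -0.62 over the 490 segment peaks (quartiles -0.92 and -0.28) and -0.82 over the 511 other peaks of chromosome 8 (quartiles -1.15 and -0.48), a difference of 0.20. The other chromosomes had a median of -0.87. Fold changes of -1 or below, that is at least a halving, were found at 94 segment peaks (19.2%) and at 189 peaks (37.0%) of the rest of chromosome 8, beside 38.9% of all peaks of the table. At the other end, 71 segment peaks (14.5%) and 40 of the rest (7.83%) had a higher level in the knockout, beside 7.45% of all peaks. Of the segment peaks 353 (72.0%) lay above the median of the table, against 273 (53.4%) of the rest. In bulk chromatin, a change in the share of cells that carry an open site and a change within each cell cannot be told apart.

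**Figure D1:**
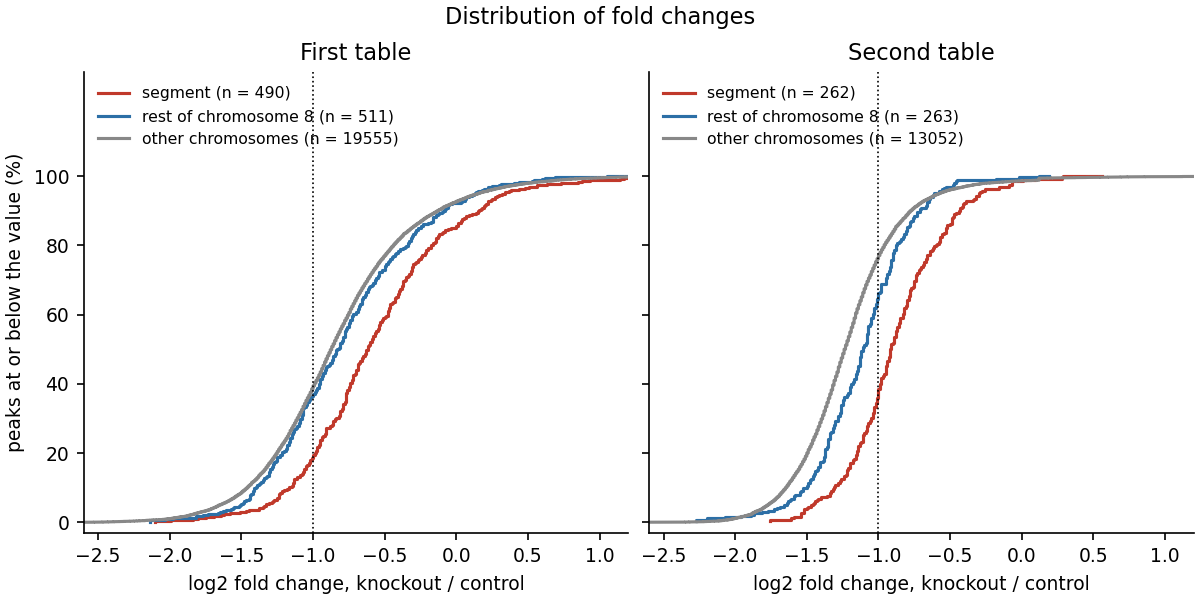
Share of peaks (%, vertical axis) at or below each log2 fold change of knockout over control (horizontal axis) in the first and second table, with 1 curve each for the segment, the rest of chromosome 8 and the other chromosomes; the dotted line marks -1. The segment's curve lies to the right of both others through the middle of each panel, with medians of -0.62 and -0.91 against -0.82 and -1.11 for the rest of chromosome 8.

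The second table, on which the segment was chosen, had medians of -0.91 in the segment (quartiles -1.1 and -0.67), -1.11 in the rest of chromosome 8 and -1.24 on the other chromosomes. There 100 segment peaks (38.2%) and 173 peaks of the rest (65.8%) were at -1 or below, beside 76.1% of all peaks, and nothing is read from these counts because the rule used them. Only 5 segment peaks and 2 of the rest had a higher level in the knockout, beside 1.34% of all peaks. For this table the reads behind each peak could be recovered, and an interval for the fold change that covers counting error only was computed at 95% confidence. It lay wholly above the table's median for 156 segment peaks (59.5%), 65 peaks of the rest (24.7%) and 15.7% of the peaks on other chromosomes. It lay wholly below for 6 segment peaks (2.29%), 26 peaks of the rest (9.89%) and 17.1% elsewhere. Nothing is read from the intervals either, since they rest on the fold changes that the rule used.

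A share of reads does not depend on how the libraries were scaled to each other. The segment took 2.783% of the reads in peaks of the knockout library (58199 reads, exact Clopper-Pearson 95% interval 2.761% to 2.805%) and 2.246% of those of the control library (120039 reads, interval 2.233% to 2.258%). The ratio of the shares was 1.239 (1.227 to 1.252). The rest of chromosome 8 took 1.977% and 1.866%, a ratio of 1.06 (1.048 to 1.072). These intervals cover counting error only, and with 1 library per group there is no spread between replicates to set the ratio against. The reads are those of the second table, on which the segment was chosen. A ratio above 1 for the segment was favoured by that choice and supports nothing.

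No peak passed an adjusted p of 0.05 in the authors' deposited tables, on chromosome 8 or elsewhere. The smallest adjusted p among the segment's peaks was 0.731 in the first of the authors' deposited tables and 0.578 in the second, the same as over all peaks, so nothing about the segment is read from it. At an unadjusted p under 0.05, the first of the authors' deposited tables had 4 segment peaks and 3 of the rest of chromosome 8, beside 1.6% of all peaks, and the second of the authors' deposited tables had 0 in the segment, beside 0.14%. All 4 were weak sites outside promoters. A distal site whose nearest gene is VIRMA stood at 1.88 (p = 0.00434, mean level 24.1 normalised reads) and one nearest SMILR at 1.39 (p = 0.0315, 24.9 reads) in the first of the authors' deposited tables. An intron of MMP16, a membrane-bound metalloproteinase gene, stood at -1.80 (p = 0.0187, 40.5 reads) and an intron of LOC101927513 at -1.84 (p = 0.0396, 64.4 reads) in the first of the authors' deposited tables. None of the 4 overlapped a peak of the second table. The second of the authors' deposited tables compares 1 library per group, so no spread between replicates stands behind its p-values. Single sites are described below by their values alone.

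Along the chromosome the difference was not even. For a description, the segment was divided at RUNX1T1, at MYC and at 140 Mb, places chosen after the values were seen. The stretch from the start of the segment to the telomeric end of RUNX1T1 was 7.0 Mb long. It did not stand above the rest of the chromosome in either table. Its 37 peaks of the first table had a median of -1.02, with 19 (51.4%) at -1 or below, beside 38.9% of all peaks. Its 17 peaks of the second had -1.14, with 14 (82.4%) at -1 or below, beside 76.1% of all peaks. Its share of reads was 1.016 times as large in the knockout library as in the control library (0.9693 to 1.065). Between RUNX1T1 and MYC, over 35.6 Mb, the medians were -0.665 over 240 peaks and -0.95 over 125 peaks, and the ratio of read shares was 1.191 (1.174 to 1.208).

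The difference was widest from MYC on. From MYC to 140 Mb the medians were -0.47 over 86 peaks of the first table and -0.78 over 31 peaks of the second. At -1 or below were 11 (12.8%) and 10 (32.3%) of them, beside 38.9% and 76.1% of all peaks. The read shares had a ratio of 1.288 (1.247 to 1.331). The gene-dense end beyond 140 Mb, with 25.7 peaks per Mb in the first table against 8.19 for the whole segment, had medians of -0.53 over 127 peaks and -0.85 over 89, and a ratio of 1.318 (1.297 to 1.339). After removal of the trend of fold change with peak level, the medians of the 4 stretches in this order were -0.15, 0.185, 0.315 and 0.43 in the first table and 0.03, 0.32, 0.46 and 0.40 in the second.

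**Figure D2:**
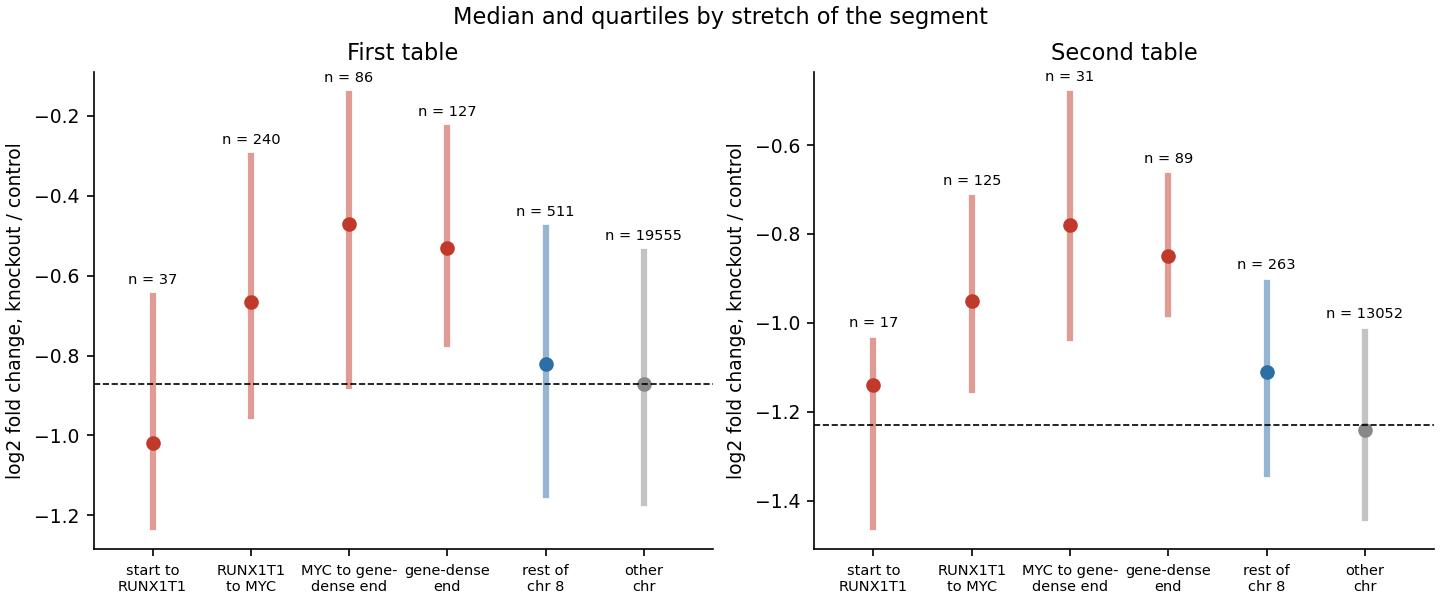
Median (point) and quartiles (bar) of the log2 fold change of knockout over control for the 4 stretches of the segment, the rest of chromosome 8 and the other chromosomes, with the number of peaks above each bar and a dashed line at the median of all peaks of the table. The stretch before RUNX1T1 lies below the rest of chromosome 8 (-1.02 and -1.14 against -0.82 and -1.11), and the 3 later stretches lie above it.

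The peaks next to RUNX1T1 are a subset of those above, cut at a place chosen after the values were seen, and their values on either side of the gene are given as a description. In the first table the 20 peaks nearest to the gene on its telomeric side, from 92.19 to 94.86 Mb, had a median of -0.665 and 15 lay above the table's median, whereas the 20 nearest on the centromeric side, from 89.73 to 91.81 Mb, had -0.96 and 9 above. With the level trend removed these medians were 0.115 and -0.055, so the first-table gap was smaller at matched level. In the second table the telomeric 20 had -0.965, with 17 above the median, and a read-share ratio of 1.224 (1.183 to 1.267). The centromeric 20, which reach back to 81.69 Mb and so leave the segment, had -1.18, with 11 above, and a ratio of 1.005 (0.9611 to 1.05). At matched level the second-table medians were 0.31 (telomeric) and 0.02 (centromeric), so there the gap was larger than before. Taken over all of its length telomeric of RUNX1T1, the segment had a median of -0.59 over 453 peaks in the first table and -0.89 over 245 peaks in the second.

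In bins of 5 Mb, 10 of the 12 segment bins of the first table had a median above that of the table, against 11 of the 18 bins of the rest of the chromosome. The exceptions were the bin from 85 Mb to 90 Mb at -0.985 and the bin from 115 Mb to 120 Mb at -0.97. The highest bin of the chromosome in that table was the one from 135 Mb to 140 Mb, at -0.365 over 12 peaks. In the second table, 11 of the 12 segment bins and 14 of the 18 others lay above the median, and the exception in the segment was the bin from 110 Mb to 115 Mb, which held 2 peaks and stood at -1.495. How the rule treated a bin with so few peaks is not stated. Bins outside the segment also reached high values, such as -0.49 over 8 peaks from 75 Mb to 80 Mb in the first table and -0.64 over 2 peaks from 145 Mb to 150 Mb, the highest bin of the chromosome in the second.

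**Figure D3:**
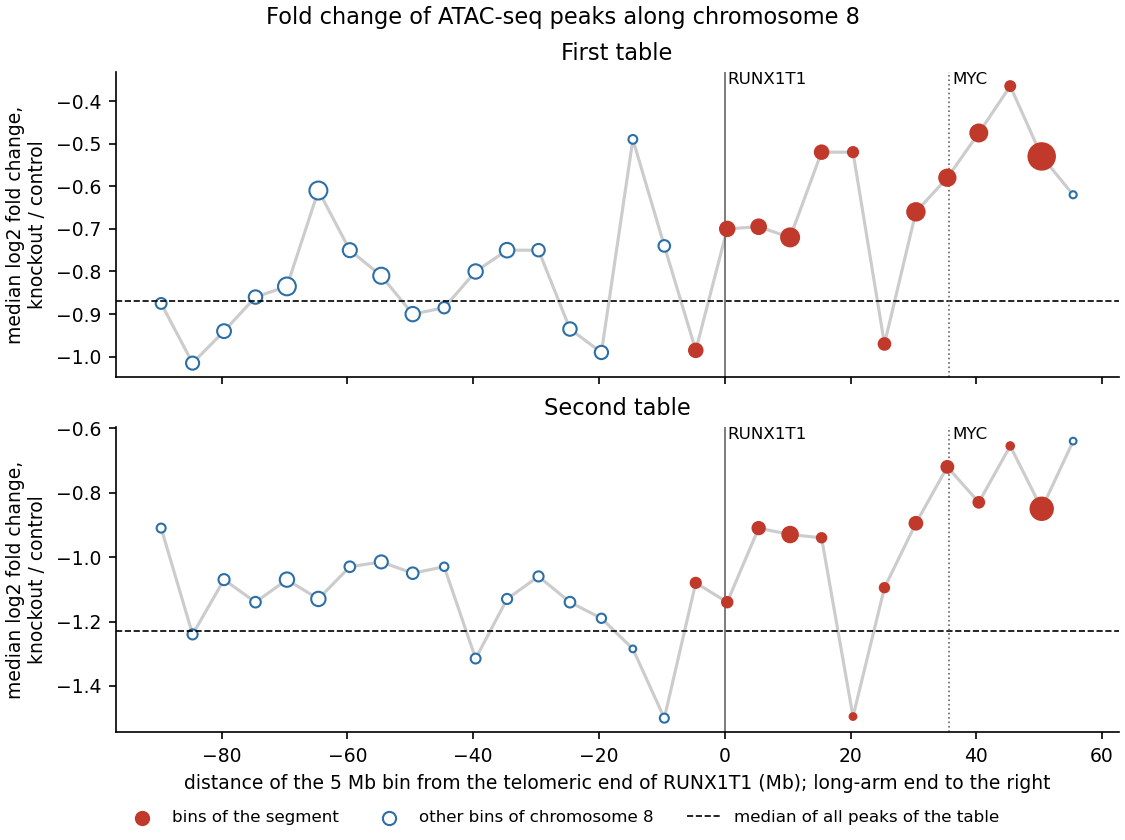
Median log2 fold change of knockout over control in 5 Mb bins of chromosome 8 (vertical axis) by distance from the telomeric end of RUNX1T1 (Mb), first table above and second below; filled points are bins of the segment, open points the other bins, larger points hold more peaks, and the dashed line is the median of all peaks. The 4 segment bins from the one with MYC on lie at -0.58 to -0.365 in the first panel and -0.85 to -0.655 in the second, single bins of the segment fall below the dashed line, and the last bin of the chromosome, outside the segment, lies at -0.62 and -0.64.

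The ends of the segment were set on a bin scale and are not sharp in single peaks. Just inside its start, peaks at LRRCC1 and E2F5-DT stood at -0.81 and -1.02 in the first of the authors' deposited tables and at -1.14 and -1.52 in the second. Just outside it, the nearest peaks stood at 0.11 and 0.04 in the first of the authors' deposited tables, both upstream of LRRCC1, and at -1.44 (ZFAND1) and -1.16 (SNX16) in the second. Just inside the far end, peaks at ZNF250 and ZNF16 had -0.69 and -0.43 in the first of the authors' deposited tables and -1.15 and -1.06 in the second. Beyond it, ZNF252P-AS1 and ZNF252P had -0.07 and -0.93 in the first of the authors' deposited tables, and ZNF252P and C8orf33 had -0.66 and -0.62 in the second.

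Promoters and other sites of the segment both stood above their counterparts on the rest of the chromosome. In the first table, 228 segment peaks (46.5%) were promoters, within 3 kb of a start site, with a median of -0.72 against -0.92 for 235 promoters of the rest. Introns had -0.43 over 141 segment peaks and -0.635 over 148 peaks of the rest, and distal intergenic sites -0.56 over 98 and -0.75 over 97. In the second table promoters had -0.94 over 172 segment peaks and -1.12 over 166 of the rest, and annotated sites outside promoters had -0.89 over 55 and -1.26 over 55. The 35 segment peaks of the second table that overlapped no peak of the first, and so have no annotation, had a median of -0.60, against -0.91 for the 42 of the rest.

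Fold change depends on peak level in these tables, so the regions were also compared within 4 classes of level with equal numbers of peaks. Segment peaks were of similar strength to the rest in the first table, with median levels of 144.5 and 128 normalised reads. From the weakest to the strongest class, the segment median exceeded that of the rest of chromosome 8 by 0.16, 0.415, 0.28 and 0.17 in the first table and by 0.385, 0.22, 0.19 and 0.225 in the second. Peaks found in both tables, 227 segment peaks of each, had medians of -0.73 in the first and -0.93 in the second, whereas segment peaks of the first table alone had -0.46.

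RUNX1T1 itself, at 91954967 to 92103385, had weak accessibility. The first table held 3 peaks annotated to it and the second table none, and no promoter peak of the gene was among them. The intronic peak at 92033639 to 92033922 had 26.2 normalised reads on average and a fold change of -0.35 (p = 0.587) in the first of the authors' deposited tables. A distal peak 84.0 kb beyond the telomeric end of the gene, at 92187363 to 92187700, had 48.2 reads and -0.31 in the first of the authors' deposited tables. The strongest, at 91811563 to 91812139, lies 142.8 kb before its centromeric end, in an intron of another transcript, with 135 reads and -0.37 in the first of the authors' deposited tables. All 3 stood above the median of that table and above the median of the telomeric flank, of which the distal peak is itself a member. Of the 3, the 2 weaker ones fall in the weakest of the 4 classes of level, in which peaks of other chromosomes had a median of -0.48, well above that of all peaks. In that class the segment had a median of -0.18 and the rest of chromosome 8 -0.34, so these 2 peaks stood below the segment's median there.

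MYC, by contrast, was lowered at its promoter about as much as peaks genome-wide. The promoter peak at 127735182 to 127736476 had 572 normalised reads on average and was at -1.06 (p = 0.308, adjusted p = 0.731) in the first of the authors' deposited tables. In the second table the peak at 127734998 to 127736531 had 455 knockout reads and 996 normalised control reads. Its fold change was -1.13 in the second of the authors' deposited tables (counting interval -1.29 to -0.97, which covers counting error only). The MYC promoter was thus 0.19 below the median of the first table and 0.10 above that of the second.

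Most other sites around MYC stood higher than its promoter. Within 3 Mb on either side, the first table held 61 peaks with a median of -0.59, of which 45 were above the table's median, 8 were at -1 or below (beside 38.9% of all peaks) and 7 had a higher level in the knockout (beside 7.45%). The second held 25 with a median of -0.66, of which 23 were above the median, 9 at -1 or below (beside 76.1%) and 2 higher (beside 1.34%). PVT1, which begins just downstream of MYC, had promoter peaks at -0.30, -0.76 and -0.77 in the first of the authors' deposited tables and at -0.78, -0.64 and -1.06 in the second, in order along the gene. The first of these promoters had 177 knockout reads and 304 normalised control reads. Its 3 intronic peaks stood at -1.51, -0.37 and -0.76 and a further peak at -0.18 in the first of the authors' deposited tables, so its sites spread over more than the distance between the segment and the rest of the chromosome.

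The promoter of CASC11, a noncoding RNA gene that starts just upstream of MYC, stood above the median of one table and below that of the other. It stood at -0.45 in the first of the authors' deposited tables and at -1.45 in the second, with 95 knockout reads and 260 normalised control reads. CCDC26, a noncoding RNA gene in the region of the blood cell enhancers of MYC, had peaks at -0.41, -0.59, -0.86 and -0.13 in the first of the authors' deposited tables, all at or above its median. The first of these was also a peak in the second table, with 88 knockout reads, 119 normalised control reads and a fold change of -0.44 in the second of the authors' deposited tables. Further on, CYRIB, which encodes a RAC1-binding regulator of the actin cytoskeleton, had its strongest promoter at -0.88 and -1.04 and a weak one at 0.55 and 0.01 in the first and second of the authors' deposited tables. An intron of ASAP1, the gene of an ARF GTPase-activating protein, had the highest value of the window, 0.83 in the first of the authors' deposited tables at a mean level of 76.6 reads, and a distal site beyond ASAP1 the lowest, -1.99.

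**Figure D4:**
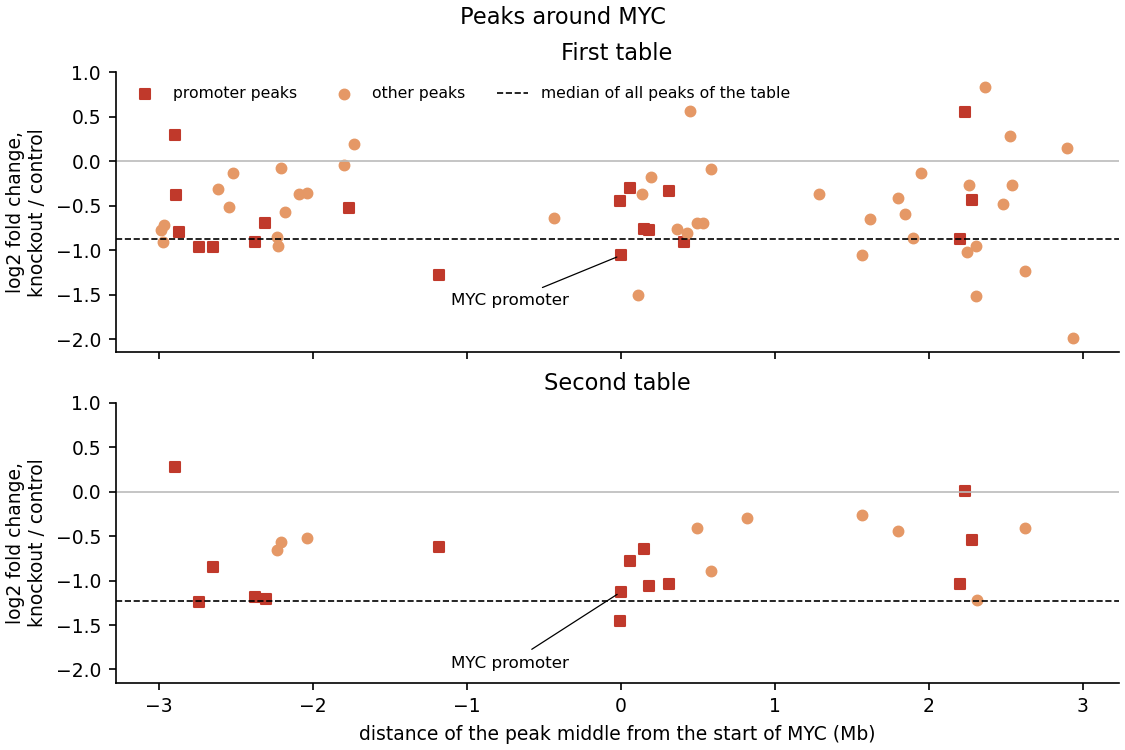
Log2 fold change of knockout over control (vertical axis) of each peak by distance of its middle from the start of MYC (Mb, horizontal axis), first table above and second below; squares are promoter peaks, circles other peaks, and the dashed line is the median of all peaks of the table. In the first table, 45 of 61 peaks and in the second 23 of 25 lie above the dashed line, whereas the MYC promoter lies close to it in both, at -1.06 and -1.13.

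The strongest promoter peak of each gene was then taken by itself. These peaks are a subset of those above, so their values are a description by gene and add no support. In the first table, 184 genes of the segment had a promoter peak, with a median of -0.74 and 42 (22.8%) at -1 or below, against -0.92 and 84 (41.8%) for 201 genes of the rest of chromosome 8, and 43.7% of the genes on other chromosomes. In the second table, 151 genes had a median of -0.94 with 62 (41.1%) at -1 or below, against -1.12 and 111 (71.2%) for 156 genes of the rest and 84.1% elsewhere. Genes listed by role were then described where they had a promoter peak in the segment. Above the table's median lay 121 of all 184 segment genes in the first table and 132 of 151 in the second. The list counts above the median are to be read beside these. The list totals below also count listed genes that lie outside the segment. Each peak carries a single gene name, so a shared promoter is credited to only one of its genes. The totals therefore do not give the share of segment genes with an open promoter. The lists had been drawn up with earlier results of these data known, and some hold genes of other roles, such as POLR2K, which encodes a subunit shared by the RNA polymerases, EMC2, of a membrane protein insertion complex, and the scaffold gene YWHAZ in the translation list, BOP1, a ribosome assembly factor, in the replication list, and VPS13B in the transcription list.

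Of the leukaemia and MYC region list, 7 of 14 genes had a promoter peak in each table, with medians of -0.75 and -1.04, and 5 and 6 of them lay above the table's median. TRIB1, a pseudokinase whose excess drives myeloid leukaemia in mice, had one of the strongest promoters, at a mean level of 1610 reads in the first table. It stood at -0.69 in the first of the authors' deposited tables and at -1.21 in the second (516 knockout reads and 1180 normalised control reads), so only the first value was clearly above its table's median. PTK2, the focal adhesion kinase gene, stood at -0.53 and -0.68 in the first and second of the authors' deposited tables, above both medians. NDRG1, a stress-responsive differentiation gene, stood at -0.75 and -1.01 in the first and second of the authors' deposited tables.

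The respiration and mitochondria list had promoter peaks at 10 of 15 genes in the first table (median -0.735, 8 above the table's median, 2 at -1 or below). In the second it had them at 9 (median -0.93, 6 above, 4 at -1 or below). Of all segment genes with a promoter peak, 22.8% and 41.1% were at -1 or below. On other chromosomes 43.7% and 84.1% of such genes were. CYC1, the cytochrome c1 subunit of complex III, stood at -0.64 in the first of the authors' deposited tables and at -0.80 in the second, with 333 knockout reads and 576 normalised control reads. MTERF3, a mitochondrial transcription regulator, at -0.67 and -0.79, OXR1, an oxidation resistance gene, at -0.68 and -0.93, and NDUFAF6, a complex I assembly factor, at -0.72 and -0.92 were likewise above both medians in the first and second of the authors' deposited tables. DECR1, an enzyme of mitochondrial fatty acid oxidation, was below both, at -1.34 and -1.54 in the first and second of the authors' deposited tables, and lies before RUNX1T1. RMDN1, a microtubule-associated gene that also lies before RUNX1T1, was below the first median and above the second, at -1.33 and -1.03 in the 2 deposited tables of the authors. COX6C, a subunit of cytochrome c oxidase, had the only value above 0, with 0.35 in the first of the authors' deposited tables, from a peak of 99.7 reads that the second table lacks.

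Translation genes were close to the genome-wide shift in the first table. All 10 had a promoter peak there, with a median of -0.89 and 5 above the table's median, and 9 in the second, with -0.85 and 6 above. RPL8, a ribosomal protein gene, stood at 0.34 in the first of the authors' deposited tables and at -0.78 in the second, with 329 knockout reads and 564 normalised control reads. PABPC1, the poly(A)-binding protein gene, was above both medians, at -0.54 and -0.82 in the first and second of the authors' deposited tables, and RPL30, another ribosomal protein gene, was near both, at -0.86 and -1.33. EEF1D, an elongation factor gene, was near the first median at -0.92 and well above the second at -0.49 in the 2 deposited tables of the authors. EIF3H, of the initiation factor eIF3 complex, had -1.15 in the first of the authors' deposited tables and no promoter peak in the second.

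Replication, repair and cohesin genes had promoter peaks at 10 of 14 genes in each table, with medians of -0.715 and -0.885, and 6 and 8 lay above the medians. TONSL, which acts in repair of stalled replication forks, had the highest first value, -0.18 in the first of the authors' deposited tables, and -0.86 in the second. The helicase gene RECQL4 stood at -0.68 and -0.94, RAD54B, of homologous recombination, at -0.70 and -0.99, and ATAD2, a bromodomain ATPase gene, at -0.66 and -0.91 in the first and second of the authors' deposited tables, each above both medians. MTBP, which acts in replication origin firing, differed between the tables, with -1.33 in the first of the authors' deposited tables and -0.79 in the second. NBN, of the MRN complex that senses double-strand breaks, lies before RUNX1T1 and was near or just below both medians, at -0.95 and -1.26 in the 2 deposited tables of the authors.

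The transcription and chromatin list had promoter peaks at 18 of 28 genes in the first table (median -0.715, 13 above) and at 17 in the second (median -1.0, 16 above). The zinc finger genes at the telomeric end were all above both medians where they had a peak in both: ZNF7 stood at -0.21 and -1.03, ZNF251 at -0.56 and -1.0, ZNF34 at -0.59 and -1.07, ZNF250 at -0.69 and -1.15 and ZNF623 at -0.77 and -0.50 in the first and second of the authors' deposited tables. ZFPM2, a cofactor of GATA factors, was also above both, at -0.21 and -0.56 in the 2 deposited tables of the authors. KLF10, a zinc finger factor induced by TGF-beta, was the lowest of the list in the first table, at -1.69 in the first of the authors' deposited tables, but stood at -1.14 in the second, slightly above its median. TAF2, a subunit of the general factor TFIID, was slightly below both medians, at -0.98 and -1.31 in the 2 deposited tables of the authors.

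**Figure D5:**
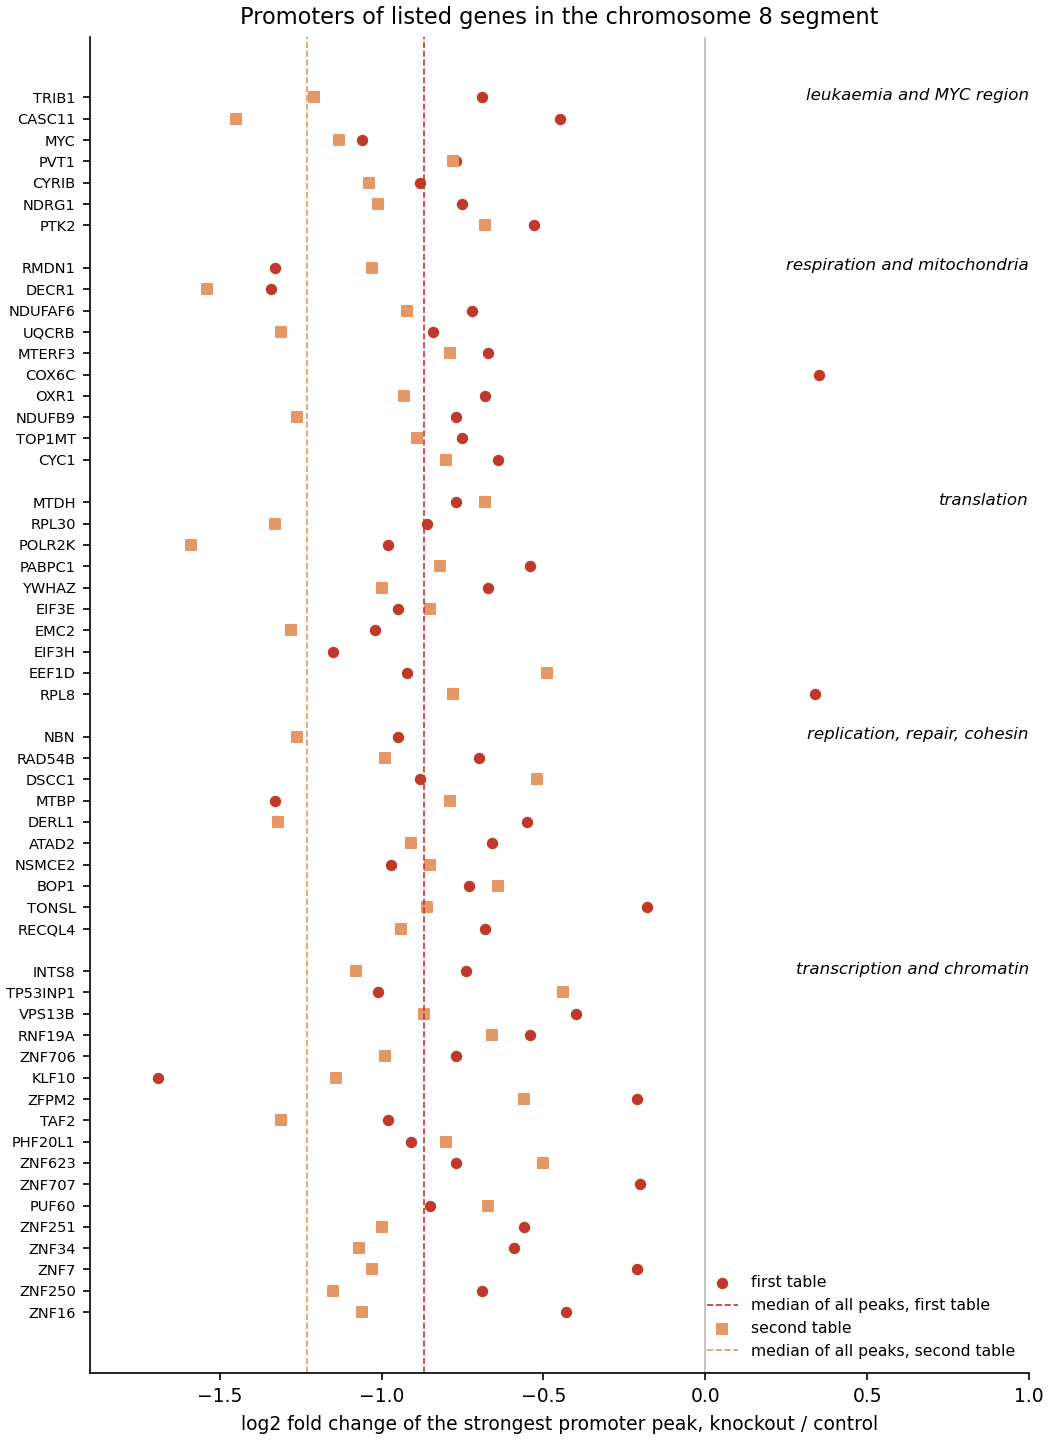
Log2 fold change of knockout over control (horizontal axis) of the strongest promoter peak of listed genes of the segment, by list and in order along the chromosome, with circles for the first table, squares for the second and a dashed line of the same colour at the median of all peaks of each table. In the replication, repair and cohesin list 6 of 10 circles and 8 of 10 squares lie to the right of their line. In the translation list 5 of 10 and 6 of 9 do. Of all segment genes with a promoter peak, 121 of 184 in the first table and 132 of 151 in the second lie above the median.

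The sites at the extremes of one table were often not extreme in the other. Of the 252 segment peaks of the first table at or above its median level, the highest were the promoters of RPL8, GSDMD (0.24), which encodes the pore-forming gasdermin D, TMEM71 (0.04) and TBC1D31 (0.03) and a site near the adhesion receptor gene ADGRB1 (0.04) in the first of the authors' deposited tables. Of these, 3 overlapped a peak of the second table, where RPL8 had -0.78, ADGRB1 -0.90 and TBC1D31 -1.47 in the second of the authors' deposited tables. The lowest were the promoters of PIP4P2 (-2.10, p = 0.062), a phosphoinositide phosphatase gene, CCN3 (-1.75), a matricellular protein gene, KLF10 and C8orf76 (-1.58), and the distal site beyond ASAP1, in the first of the authors' deposited tables. CCN3 had -0.72 and C8orf76 -1.0 in the second of the authors' deposited tables, above its median.

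Of the 149 segment peaks of the second table that were at or above its median level and carried an annotation (8 more had none), the least lowered was the promoter of TSNARE1, of a SNARE family protein, with 232 knockout reads and 260 normalised control reads. Its fold change was -0.16 in the second of the authors' deposited tables and -0.41 in the authors' first. An ASAP1 site (-0.41) and the promoters of TP53INP1 (-0.44), a p53-induced gene, EEF1D (-0.49) and GFUS (-0.49), of GDP-fucose synthesis, followed in the second of the authors' deposited tables. In the first of the authors' deposited tables these 4 stood at -1.24, -1.01, -0.92 and -0.94, each below its median. The lowest was a site at -22438 bp from the start of ODF1, with 221 knockout reads and 680 normalised control reads, at -1.61 in the second of the authors' deposited tables and -0.70 in the authors' first. POLR2K (-1.59), DECR1 (-1.54), the ciliary gene TMEM67 (-1.54) and CA3-AS1 (-1.52), antisense to a carbonic anhydrase gene, followed in the second of the authors' deposited tables. Their values were -0.98, -1.34, -0.69 and -1.31 in the first of the authors' deposited tables.

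Among 23 chromosomes, chromosome 8 as a whole ranked 4 from the highest by median fold change in the first table, at -0.73, and 2 in the second, at -1.0. Chromosome 21, the other partner of the translocation, ranked 1 in both, at -0.63 and -0.995. Chromosomes 19 (-0.68) and 22 (-0.71) also ranked above chromosome 8 in the first table. With the level trend removed, first-table medians were 0.13 for chromosome 8, 0.21 for chromosome 21 and 0.235 for chromosome 19. In the second table they were 0.22, 0.17 and 0.05. Peaks of chromosome 21 centromeric of RUNX1 had medians of -0.57 and -0.95 in the first and second table, and those telomeric of RUNX1 had -0.725 and -1.085. The side with the higher median was thus the telomeric one of RUNX1T1 on chromosome 8 and the centromeric one of RUNX1 on chromosome 21. The part of the translocation in these values was not tested.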

How the data were processed

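ATAC-seq was measured in 2 SETD8 knockout and 2 sgNT control libraries of Kasumi-1 cells, grouped by their titles. Per the submitters' processing notes, MACS2 2.1.2, Bowtie2, ChIPseeker, cutadapt, deepTools and SAMtools were used with hg38. Their settings, the shift of reads for the transposase cut and the scaling of libraries are not given in the sources used here. Per the file headers, the authors deposited, for each peak of the second table, log2 levels of the knockout and control library numbered 2, the p-value with its adjusted form, and the log2 fold change. Columns of the authors' first table are only numbered, so its log2 values (mean level, fold change) and both kinds of p were recognised from order and range, and its direction from the name of the deposited table. Its 2 per-sample columns were not used, since the libraries behind them are not named.

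Members and lists were chosen with earlier results of these data known. Tables were kept separate. Second-table peaks took the annotation of the first-table peak they overlapped most (at least 1 bp). Of 13240 gene identifiers, 13228 matched current symbols. To remove the level trend, peaks were put in 20 equal bins by mean level and each bin's median was subtracted. Knockout levels of the second table were whole reads and control levels reads times 0.918 (100% of 2002 and of 396 weak values within 0.005 on the log2 scale), which gave read counts with exact Clopper-Pearson or Poisson-based 95% intervals. Levels have 2 decimals, so strong peaks' reads are rounded to that precision. Named were all RUNX1T1, MYC and PVT1 peaks, the strongest promoter peak of list genes, the 5 highest and 5 lowest peaks per table at or above the median level, 1 per gene, and the 2 peaks on either side of each end. Other CCDC26, CYRIB and ASAP1 peaks, the peaks with a low p, the stretches and the flanks of RUNX1T1 were chosen after values were seen, and only some list genes are named; the values of 1 list gene are counted but not reported here. The planned edgeR count test was not run, because counts of all 4 libraries were not used here, so comparisons are medians and counts with no test. The scripts were tested on simulated data. Python 3.11.15, numpy 2.4.6, pandas 2.3.3, scipy 1.17.1 and matplotlib 3.10.9 were used. Alternatives covered the fold size, centring, a level filter, the annotation class, the peaks compared and the denominator of read shares.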

Additional observations from a re-analysis of the deposited data

How the results depend on the processing

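Since the segment was chosen for raised values in the second table, its sign there was fixed by the choice and shows no stability. The difference between segment and rest of chromosome 8, 0.20 in each table, was 0.265 in the first and 0.37 in the second when promoters were left out, and 0.32 in the second against every other peak. Under the other alternatives, including no peaks of the last 5 Mb, it was 0.15 to 0.25 in the first and 0.16 to 0.24 in the second. The counts of segment peaks lower by at least 1, 94 and 100, depended on the size asked for. At 0.5 they were 289 and 225 (76.7% and 95.9% of all peaks passed), and at 1.5 they were 14 and 10 (8.51% and 19.5%). After centring each table on its median 3 and 0 were at -1 or below (1.98% and 0.206% of all peaks). Counting only peaks that were also at or above the median level gave 61 of the 490 and 64 of the 262 segment peaks. Of all peaks of any level, 23.8% and 43.2% met both conditions. The ratio of read shares, 1.239, was 1.238 over promoters, 1.251 without the most open 1% of peaks and 1.07 with chromosome 8 as the denominator, which itself holds the segment. No paired analysis was possible because per-library values were used for the libraries numbered 2 only, and leaving out each replicate was not run for the same reason. With 1 library per group in the second table, no difference has a replicate check, and the first table's libraries are not known.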
